A study of Mus musculus with 6 samples.

Results

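The germline RNA helicase gene *Ddx4* and 9 genes that work with it in the PIWI-interacting RNA (piRNA) pathway or mark germ cells were followed in RNA-seq libraries of sorted mouse hematopoietic stem cells (HSCs). The members are *Ddx4*, *Dazl*, *Piwil1*, *Piwil2*, *Piwil4*, *Mael*, *Tdrd1*, *Tdrd7*, *Tdrd9* and *Mov10l1*. They were taken by symbol, and each had its own entry, so that 10 of the 34745 genes of the tables are described. *Ddx4* was picked because its read counts were high in the *Med23*-deficient libraries of these same data, so its difference between the groups is given as a description with no test. The question was whether *Ddx4* was high alone or together with the rest of a germline programme.

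There were 3 WT and 3 KO libraries, each from bone marrow cells of adult C57BL/6 mice sorted as LSK CD150+CD34-CD48-. Both groups carried the floxed *Med23* alleles, which the labels spell Med23floxp/flowp, and the KO group also carried Mx1-cre. The *Mx1* promoter is induced by interferon and drives the recombinase in many cell types besides HSCs, and the study's methods describe induction with poly(I:C). Whether the WT mice of these libraries received poly(I:C) is not given in the sources used here, so the transgene, its induction and the loss of *Med23* cannot be told apart in this comparison.

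*Ddx4* (also called Vasa) encodes a DEAD-box RNA helicase of the germ cell granules known as nuage. In the mammalian testis, PIWI proteins loaded with piRNAs silence transposons, and Tudor-domain proteins bind the methylated arginines of PIWI proteins and of Ddx4 to hold the machinery together. Most of these genes are silent in somatic tissues, where DNA methylation and Polycomb or histone methyltransferase complexes keep their promoters shut.

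Library totals ran from 3537269 to 8131344 counts, so that 3 counts, the least signal taken as detected in a library, corresponded to between 0.369 and 0.927 CPM, counts relative to the library total after TMM scaling. *Med23*, a subunit of the Mediator complex and the gene targeted here (chr10:24869986-24913681, GRCm38), had 232, 576 and 78 counts in WT replicates 1, 2 and 3 and 156, 164 and 182 in KO replicates 1, 2 and 3. Its library-scaled level was 47.5 ± 23.3 CPM in WT and 32.8 ± 3.63 CPM in KO (SD, n = 3 each), and the log2 fold change was -0.54 (standard error, SE, 0.41, adjusted p = 0.99, edgeR quasi-likelihood test). The library labelled WT replicate 3 had less *Med23* (24.1 CPM) than every KO library, so *Med23* counts did not separate the libraries by label. Skeletal muscle genes summed to 600 CPM in this library. They summed to 349 and 247 CPM in WT replicates 1 and 2, and to 28.2 to 55.3 CPM in KO. Whether the label of WT replicate 3 is right was not tested. The study reports that poly(I:C) removed *Med23* efficiently from blood-forming cells. Counts over a whole gene do not show which exons were read. Both libraries numbered 3 also lacked Y-linked reads, with 1 and 0 counts over 4 Y-linked genes against 1036 to 1855 in the other 4 libraries. A 0 was not always set by depth, since of 1951 genes that reached 1000 counts somewhere, 6 were at 0 in another. Among them, and picked after its values were seen, *mt-Co1* was at 0 in KO replicate 2 and between 6704 and 19616 counts elsewhere.

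*Ddx4* was low in WT HSCs and a moderately abundant transcript in every KO library. *Ddx4* (ENSMUSG00000021758, chr13:112598333-112652475, minus strand) had 10, 16 and 14 counts in WT replicates 1, 2 and 3. In KO replicates 1, 2 and 3 it had 177, 262 and 254 counts. All 3 KO libraries were therefore high and all 3 WT libraries low, with no overlap, as 6.25% of the 12513 genes tested also were in this direction. Per length, the WT libraries held 0.739, 0.691 and 1.39 FPKM, and the KO libraries 13.1, 17.4 and 17.4 FPKM. These are levels of a length-scaled kind, and they placed *Ddx4* above 19.8% to 27.0% of the genes with counts in each WT library and above 73.7% to 80.7% of those in each KO library.

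After scaling for library size, *Ddx4* stood at 2.78 ± 1.34 CPM in WT and 45.0 ± 8.11 CPM in KO (SD, n = 3 each). The ratio of these means was 16.2, and the fitted log2 fold change was 4.05 (SE 0.51). Summed over the group, 40 WT counts and 693 KO counts gave, relative to the library totals, a KO to WT ratio with a 95% exact interval of 13.3 to 25.9, which covers counting error only. The spread between libraries was wider in relative terms in WT, with a coefficient of variation of 48.2%, than in KO, with 18%. The highest WT level belonged to replicate 3, at 4.33 CPM, and the lowest KO level to replicate 1, at 35.9 CPM, which left the lowest KO level 8.29 times the highest WT level. Among the tested genes, 11 had a gap at least this wide in the same direction, *Ddx4* included.

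The *Ddx4* difference was present on both sides of the Y-linked split. Between libraries of the same number, KO over WT was 17.5 for replicate 1 and 24.2 for replicate 2, where Y-linked reads were present, and 11.9 for replicate 3, where they were not. Equal numbers are not taken as pairs here, and the side without Y-linked reads had 1 library of each group. Without either library numbered 3 the ratio of means was 20.8. Leaving out the library labelled WT replicate 3 raised the fitted log2 fold change to 4.47. In bulk libraries a few cells with much *Ddx4* RNA and many cells with little cannot be told apart, nor can fewer cells of a type and less RNA per cell. The study also sequenced single HSCs and reports higher *Ddx4* expression in the *Med23*-deficient ones. Those single-cell data were not used here.

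**Figure D1:**
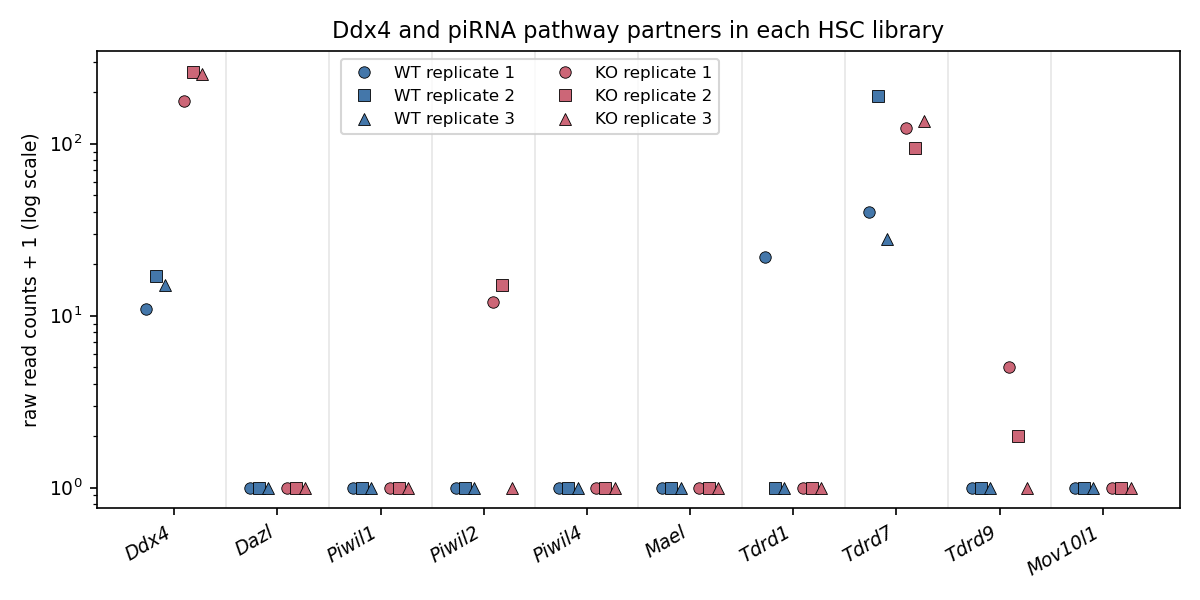
Raw read counts plus 1 (log scale) of *Ddx4* and its 9 partners in each of the 3 WT (blue) and 3 KO (red) libraries, with a marker shape for each replicate number. Only *Ddx4* had every KO library above every WT library, at 177 to 262 against 10 to 16 counts, while 5 partners had no counts in any library.

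The sequence around the annotated start of *Ddx4* is shown beside those of partners without counts, so that the letters at the start of the gene that was high in KO can be read against those of genes that were not detected. The windows are from RefSeq on GRCm38.p6 and run from 250 bases before the start to 50 bases after it, 5′ to 3′ on the gene's strand. Capitals mark the E-box CACGTG, which reads the same on both strands and is the core letters bound by Max and its dimer partners, and GCGGGAA or its reverse complement TTCCCGC, letters known from E2F binding sites. Both motifs were searched on both strands, and they cannot overlap each other. *Ddx4* lies at chr13:112652261-112652560 (minus strand), *Dazl* at chr17:50293571-50293870 (minus strand), *Mael* at chr1:166238695-166238994 (minus strand) and *Piwil1* at chr5:128735996-128736295 (plus strand).
Ddx4: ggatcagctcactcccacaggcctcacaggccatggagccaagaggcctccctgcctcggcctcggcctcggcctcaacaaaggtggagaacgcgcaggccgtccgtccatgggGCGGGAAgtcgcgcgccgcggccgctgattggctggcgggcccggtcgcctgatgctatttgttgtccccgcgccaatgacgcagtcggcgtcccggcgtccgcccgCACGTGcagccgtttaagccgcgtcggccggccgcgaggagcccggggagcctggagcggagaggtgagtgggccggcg
Dazl: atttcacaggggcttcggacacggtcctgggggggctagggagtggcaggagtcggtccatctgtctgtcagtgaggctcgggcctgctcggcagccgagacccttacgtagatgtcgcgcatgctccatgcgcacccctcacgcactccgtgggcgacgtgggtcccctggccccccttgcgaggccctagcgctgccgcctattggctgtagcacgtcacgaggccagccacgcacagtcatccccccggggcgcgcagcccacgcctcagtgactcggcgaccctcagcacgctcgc
Mael: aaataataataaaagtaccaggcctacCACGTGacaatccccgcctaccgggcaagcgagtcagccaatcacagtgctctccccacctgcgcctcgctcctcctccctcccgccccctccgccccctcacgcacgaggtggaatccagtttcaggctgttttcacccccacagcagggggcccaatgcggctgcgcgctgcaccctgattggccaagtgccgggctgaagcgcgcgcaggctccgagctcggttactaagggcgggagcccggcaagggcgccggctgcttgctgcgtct
Piwil1: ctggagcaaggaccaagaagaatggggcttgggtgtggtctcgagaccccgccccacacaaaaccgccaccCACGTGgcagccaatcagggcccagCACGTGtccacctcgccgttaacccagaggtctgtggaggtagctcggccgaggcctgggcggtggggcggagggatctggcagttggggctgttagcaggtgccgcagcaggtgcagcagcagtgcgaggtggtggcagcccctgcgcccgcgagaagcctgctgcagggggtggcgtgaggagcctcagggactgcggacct

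The *Ddx4* window held 38 CG dinucleotides, more than 95.0% of the 32851 windows of the table, whose median was 7.0. It had GCGGGAA from position 115 and CACGTG from position 222, counted from 1 at the 5′ end. GCGGGAA or its complement occurred in 4.6% of all windows, CACGTG in 7.15%, and both in 0.457%. Among the 8701 windows with at least 20 CG, these shares were 11.4%, 11.6% and 1.29%. These matches are letters in a window and say nothing of whether a factor was bound.

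Of the 10 members, 9 had a window in the table and *Piwil2* had none. CACGTG was found in 6 members, namely *Ddx4*, *Piwil1*, *Mael*, *Tdrd1*, *Tdrd9* and *Mov10l1*, and GCGGGAA in *Ddx4* alone. Of the partners without counts, *Dazl* had 28 CG, *Mael* 24, *Mov10l1* 20 and *Piwil1* 18, more than 85.8%, 80.0%, 73.5% and 70.3% of all windows, and *Piwil4* had 11 and 0 in its windows, more than 58.6% and 0.0%. *Tdrd7*, with 32 CG in windows 2 and 3 of its 3, was counted in every library, and the other partners had few or no counts in the KO libraries, as described next.

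No partner was called in the comparison of KO with WT. By edgeR's quasi-likelihood test with Benjamini-Hochberg adjustment over all genes tested, 9 of 12513 genes (0.0719%) were past an adjusted p of 0.05, 2 of them higher in KO (0.016% of the genes tested) and 7 lower (0.0559%). *Tdrd7* was the only partner with enough counts for that test, so that 2 of the 10 members, *Ddx4* and *Tdrd7*, passed the count filter, as 36.0% of all genes did. Without the filter (0.0682% of genes called), *Piwil2*, *Tdrd1* and *Tdrd9* each had an adjusted p of 0.67 by edgeR. Over the 9 partners together there were 275 counts in WT and 381 in KO, most of them from *Tdrd7*. Of the 9, 2 (22.2%) were at 0 in WT with counts in some KO library, against 5.15% of all genes. The reverse held for 1 (11.1%), against 4.24%.

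Among the PIWI genes, whose proteins carry the piRNAs, *Piwil1* (Miwi, chr5:128702524-128755474) and *Piwil4* (Miwi2, chr9:14696230-14740733) had 0 counts in all 6 libraries. *Piwil2* (Mili, chr14:70372477-70429383) had 0 counts in each WT library and 11, 14 and 0 in KO replicates 1, 2 and 3. *Piwil2* was thus seen in KO replicates 1 and 2 and not in replicate 3, so its groups overlapped at 0. Its KO level was 0.337 ± 0.294 FPKM (SD, n = 3), and the exact two-sided permutation test over libraries gave p = 0.4, where 3 libraries against 3 cannot give less than 0.1. In the whole table, 5.15% of genes were at 0 in WT and had counts in some KO library.

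*Dazl* (chr17:50279395-50293636), an RNA-binding protein of germ cells from their early stages onwards, had 0 counts in all 6 libraries. *Mael* (Maelstrom, chr1:166201201-166238747), a nuage protein needed for transposon silencing, and *Mov10l1* (chr15:88982909-89055152), the helicase that binds piRNA precursors, were also at 0 in every library. With *Piwil1* and *Piwil4* this made 5 of the 10 members at 0 throughout, against 45.1% of all genes of the tables. For these 5, the floor of 3 counts in a library would equal 0.0685 to 0.489 FPKM in the WT libraries and 0.105 to 0.364 FPKM in the KO libraries, computed on annotated exon length, and a lower signal was not detectable at this depth. The KO level of *Ddx4*, 15.9 ± 2.51 FPKM (SD, n = 3), can be set beside those limits only roughly, since the gene lengths differ. The deposited FPKM of *Ddx4* imply 2849 bases, and its annotated exon length is 3014 bases.

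The 3 Tudor-domain members were not alike. *Tdrd1* (chr19:56826209-56870012), a scaffold that binds PIWI proteins, had 21 counts in WT replicate 1 and 0 in the other 5 libraries. Its exact permutation test gave p = 1.0, and 4.24% of all genes were likewise at 0 in KO with counts in some WT library. *Tdrd9* (chr12:111971559-112068854), a helicase with a Tudor domain, had 0 counts in each WT library and 4, 1 and 0 in KO replicates 1, 2 and 3, with an exact permutation p = 0.4. Only KO replicate 1 passed the floor of 3 counts for *Tdrd9*.

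*Tdrd7* (chr4:45965334-46034761), which is also used outside the germline, in the lens for example, was the partner with most reads. It had 39, 188 and 27 counts in WT replicates 1, 2 and 3 and 123, 94 and 134 in KO replicates 1, 2 and 3. As library-scaled levels these were 8.0, 23.1 and 8.34 CPM in WT and 24.9, 17.1 and 27.1 CPM in KO. WT replicates 1 and 3 were low, whereas WT replicate 2 lay within the KO range, so the groups overlapped. The mean was 13.1 ± 8.62 CPM in WT and 23.0 ± 5.26 CPM in KO (SD, n = 3 each), a log2 fold change of 0.79 (SE 0.55, adjusted p = 0.99, edgeR quasi-likelihood test). The difference was within the spread between libraries, and the exact permutation test gave p = 0.2.

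Beyond the members, 118 of 119 further germline genes were found in the tables, in lists of the piRNA pathway, germ cell identity, meiosis, spermatids and oocytes. Of these, 59 had no counts in any library and 23 had enough counts to be tested. None of the 23 was called by edgeR, and DESeq2 (1.04% of 14441 genes called) also called 0. At an unadjusted p under 0.05 there was 1 of 23, against 5.71% of all genes tested. The median log2 fold change of the 23 was 0.13, beside -0.01 over all genes tested. Of the 118, 0 were at 0 in WT with counts in every KO library, a pattern that 0.607% of all genes showed, and 1 had the reverse pattern (*Terb1*, with 2, 2 and 16 counts in WT), as did 0.702% of all genes. At 0 in WT with counts in some KO library were 12 of the 118 (10.2%), against 5.15% of all genes, and the reverse held for 9 (7.63%), against 4.24%.

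**Figure D2:**
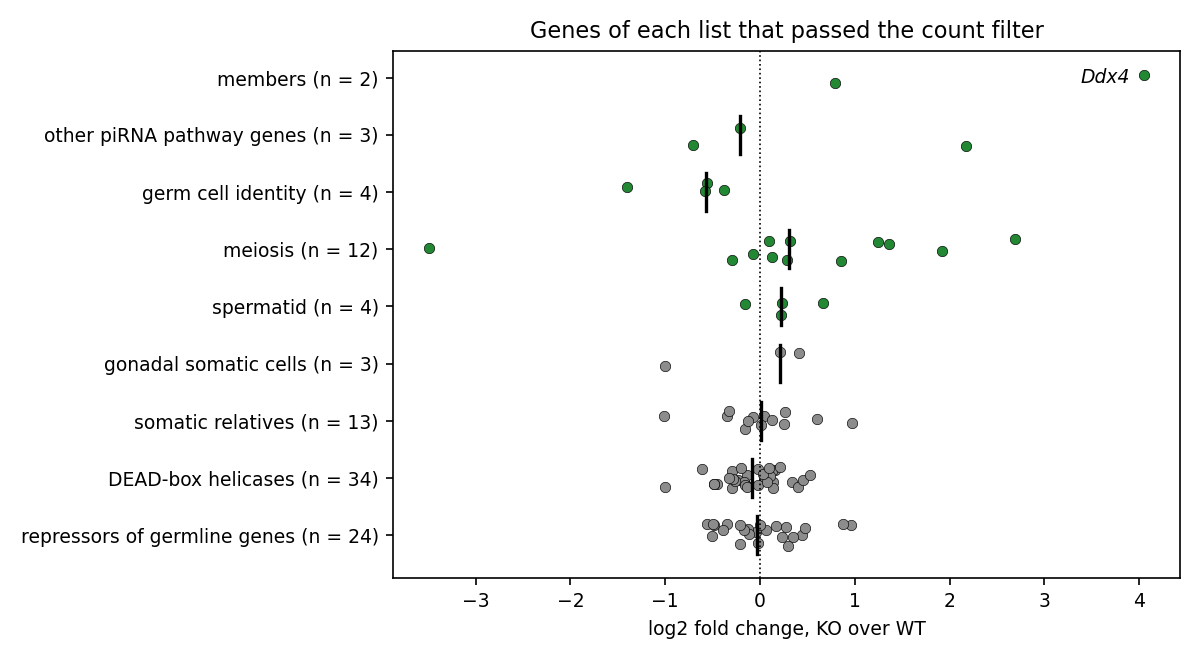
Log2 fold change of KO over WT for each gene that passed the count filter, by list, with germline lists in green, other lists in grey and black bars at the medians of lists with 3 or more genes. *Ddx4* lies at 4.05, and the nearest germline list gene below it is *Brdt* at 2.69, with an SE of 1.32 and an adjusted p of 0.92 by edgeR.

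None of the remaining piRNA pathway genes was called. Of 21 listed, 8 had no counts and 3 were tested. At 0 in WT with counts in some KO library were 5 of the 21 (23.8%), against 5.15% of all genes. They were *Tdrd5*, *Henmt1*, *Exd1*, *Spocd1* and *Dnmt3l*, named after their values were seen, and each was at 0 in at least 1 KO library. *Dnmt3l* had only 1 count, in KO replicate 1, under the floor of 3 counts. The reverse held for 1 (4.76%), against 4.24% of all genes. *Tdrkh*, a mitochondrial Tudor protein that takes part in piRNA trimming, had 160, 279 and 65 counts in WT and 166, 147 and 74 in KO (log2 fold change -0.21, SE 0.44). *Pld6*, the mitochondrial nuclease Zucchini, had 72, 81 and 71 counts in WT and 20, 60 and 66 in KO (log2 fold change -0.71, SE 0.63). Both are expressed outside the germline. *Rnf17*, a Tudor-domain protein of male germ cells, had 10, 2 and 0 counts in WT and 37, 2 and 14 in KO, a log2 fold change of 2.17 with an SE of 1.53. Its groups overlapped, and the adjusted p of these 3 genes was 0.99 to 1.0 by edgeR's quasi-likelihood test. *Gpat2*, a piRNA factor of the mitochondrial surface, was under the filter with 5, 6 and 4 counts in WT and 41, 10 and 6 in KO, a value set mainly by KO replicate 1.

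No germ cell identity gene was called. Of 28 listed, 19 had no counts and 4 were tested, with 0 called and a median log2 fold change of -0.57. *Kit*, the receptor that HSCs share with germ cells and that the sort selects for, had a log2 fold change of -0.38 (SE 0.18, adjusted p = 0.91, edgeR). *Uchl1*, a ubiquitin hydrolase of spermatogonia, had 69, 94 and 73 counts in WT and 24, 19 and 49 in KO, a log2 fold change of -1.40 (SE 0.65, adjusted p = 0.91, edgeR). In both genes every KO library lay below every WT library, as for 6.15% of all genes tested. *Zbtb16*, a spermatogonial and blood transcription factor, and *Dnd1*, an RNA-binding protein of primordial germ cells, had log2 fold changes of -0.58 (SE 1.21) and -0.56 (SE 1.09), and their groups overlapped.

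The meiosis list was the most broadly counted of the germline lists, and its tested genes lay on both sides of 0. Of 33 genes found, 11 had no counts and 12 were tested, with 0 called, a median log2 fold change of 0.3 and a range from -3.49 to 2.69. *Brdt*, a testis bromodomain protein, had 0, 11 and 2 counts in WT and 10, 27 and 33 in KO. *Mcmdc2*, a meiotic recombination factor, had 10, 12 and 1 counts in WT and 12, 18 and 18 in KO (log2 fold change 1.24, SE 1.11). *Syce1*, a central element protein of the synaptonemal complex, went the other way, with 15, 31 and 24 counts in WT and 6, 0 and 0 in KO. Its log2 fold change was -3.49 (SE 1.52, adjusted p = 0.86, edgeR), and it was the gene with the unadjusted p under 0.05. After scaling, these 3 genes did not overlap between groups, *Brdt* and *Mcmdc2* being higher in KO, as 6.25% of all genes tested were, and *Syce1* lower, as 6.15% were.

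The most abundant genes of the meiosis list had log2 fold changes near 0. The log2 fold change was 0.13 for the cohesin subunit *Rec8*, -0.07 for *Syce2*, 0.09 for the mismatch repair gene *Mlh3* and 0.32 for *Spo11*, which makes meiotic DNA breaks (SEs 0.33, 0.36, 0.52 and 0.40, adjusted p = 1.0 for each by edgeR). The structural genes *Sycp2* and *Sycp3* and the recombinase *Dmc1*, named after their values were seen, had 0 counts in all 6 libraries. *Sycp1* of the same list, also named afterwards, had 14, 6 and 1 counts in WT and 45, 30 and 3 in KO. Its log2 fold change was 1.92 (SE 1.27, adjusted p = 0.99, edgeR), and its groups overlapped. Of 19 spermatid genes 10 had no counts and 4 were tested. *Odf2*, a sperm tail gene with a centrosomal product in other cells, was the most counted of them, with 492, 616 and 219 counts in WT and 394, 275 and 440 in KO. In the 4 tested genes, the log2 fold change being -0.16 for *Odf2*, 0.66 for *Crem*, 0.22 for *Catsper2* and 0.23 for *Gapdhs* (SEs 0.31, 0.92, 1.35 and 0.96, adjusted p = 1.0 for each by edgeR). None of the 17 oocyte genes was tested, and their summed counts were 4, 1 and 7 in WT and 3, 14 and 11 in KO.

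As a whole, the 5 germline lists summed to 1183.7 to 1335.9 CPM in WT and 994.0 to 1162.5 CPM in KO, every KO library lying below every WT library. *Kit* gave most of these reads, and without it the sums were 388 to 423 CPM in WT and 329 to 442 CPM in KO, with the WT range inside the KO range. Markers of the gonadal somatic cells that surround germ cells were checked too. Of 17 found, 3 were tested and 0 called, and *Lhcgr*, the luteinizing hormone receptor, had 221, 471 and 290 counts in WT and 526, 342 and 268 in KO (log2 fold change 0.21, SE 0.36). *Star*, which carries cholesterol into mitochondria for steroid synthesis, and *Inha*, the inhibin subunit, had log2 fold changes of 0.41 and -1.0 (SEs 0.98 and 1.56, adjusted p = 1.0 for both by edgeR).

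No somatic relative of *Ddx4* was called. Of 37 other DEAD-box helicase genes found, 34 were tested and 0 called, with a median of -0.08 and a range from -1.0 to 0.53. *Ddx3x*, a close somatic relative on the X chromosome, had 440, 663 and 613 counts in WT and 471, 741 and 690 in KO (log2 fold change 0.04, SE 0.34). Its Y-linked copy *Ddx3y* had 197, 670 and 0 counts in WT and 398, 302 and 0 in KO, following the Y-linked split. Reads from *Ddx3x*, *Ddx3y* and the testis retrogene *D1Pas1* can be hard to tell apart, and *D1Pas1* had 0 counts in all 6 libraries. *Ddx25*, a helicase of the testis, had 0 counts in each WT library and 3, 0 and 8 in KO.

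The most abundant helicase gene was *Ddx5*, which acts in splicing, with a log2 fold change of 0.11 (SE 0.29). In 2 of the 34 tested helicase genes, *Ddx49* and *Ddx19a*, the KO libraries all lay below the WT libraries, as for 6.15% of all genes tested. Their log2 fold changes were -1.0 (SE 0.36, adjusted p = 0.71) and -0.61 (SE 0.38, adjusted p = 0.98) by edgeR. A list of 14 somatic relatives of the members, which shares *Ddx3x* and *Ddx3y* with the helicases, had 13 tested and 0 called with a median of 0.01. In it the Tudor nuclease *Snd1*, the most abundant, stood at 0.25 (SE 0.23). The PIWI relative *Ago3* stood at -0.35 (SE 0.33). It was lower in KO without overlap, which held for 1 of the 13 and for 6.15% of all genes tested.

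Genes that keep germline promoters silent in somatic cells were measured with good depth, and none was called. Of 25 listed, 24 passed the filter, and their log2 fold changes ran from -0.56 to 0.96 around a median of -0.03. The maintenance DNA methyltransferase *Dnmt1* had 2111, 2435 and 685 counts in WT and 1068, 1298 and 1089 in KO (log2 fold change -0.49, SE 0.26, adjusted p = 0.93, edgeR). The de novo methyltransferase *Dnmt3a* had 994, 1692 and 679 counts in WT and 975, 561 and 684 in KO (log2 fold change -0.51, SE 0.26, adjusted p = 0.93, edgeR). Its scaled levels in KO were all below those in WT, which held for 1 of the 24 and for 6.15% of all genes tested. *E2f6*, whose product binds the E2F letters printed above, had 273, 321 and 107 counts in WT and 231, 474 and 202 in KO (log2 fold change 0.44, SE 0.38, adjusted p = 0.99, edgeR), and was named after its values were seen.

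The tested genes beside *Ddx4* on chromosome 13 had log2 fold changes near 0. Within 500 kb on each side the tables held 12 protein-coding genes, of which 5 had no counts (*Ankrd55*, *Ccno*, *Mcidas*, *Cdc20b* and *Gzma*) and 4 were tested with 0 called. The nearest on the start side was *Slc38a9*, a lysosomal amino acid transporter read in the opposite direction from a start region 8276 bases away. It had 276, 271 and 138 counts in WT and 203, 284 and 278 in KO, a log2 fold change of 0.17 (SE 0.33). *Il6st*, the gp130 receptor subunit, had 767, 1308 and 419 counts in WT and 649, 838 and 642 in KO, a log2 fold change of -0.11 (SE 0.21). *Skiv2l2*, an exosome helicase, and *Dhx29*, a translation initiation helicase, had log2 fold changes of 0.08 and 0.12 (SEs 0.41 and 0.61). The adjusted p was 1.0 for each of the 4, and all their groups overlapped.

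The other neighbours had few reads. *Il31ra*, 3973 bases beyond the 3′ end of *Ddx4*, had 8 counts in KO replicate 3 and 0 in the other 5 libraries. *Ppap2a* had 2, 3 and 5 counts in WT and 14, 2 and 0 in KO. *Gpx8* had 9, 13 and 1 counts in WT and 0 in each KO library, a pattern that 0.702% of all genes showed. No neighbour was therefore seen in every KO library and absent from WT.

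**Figure D3:**
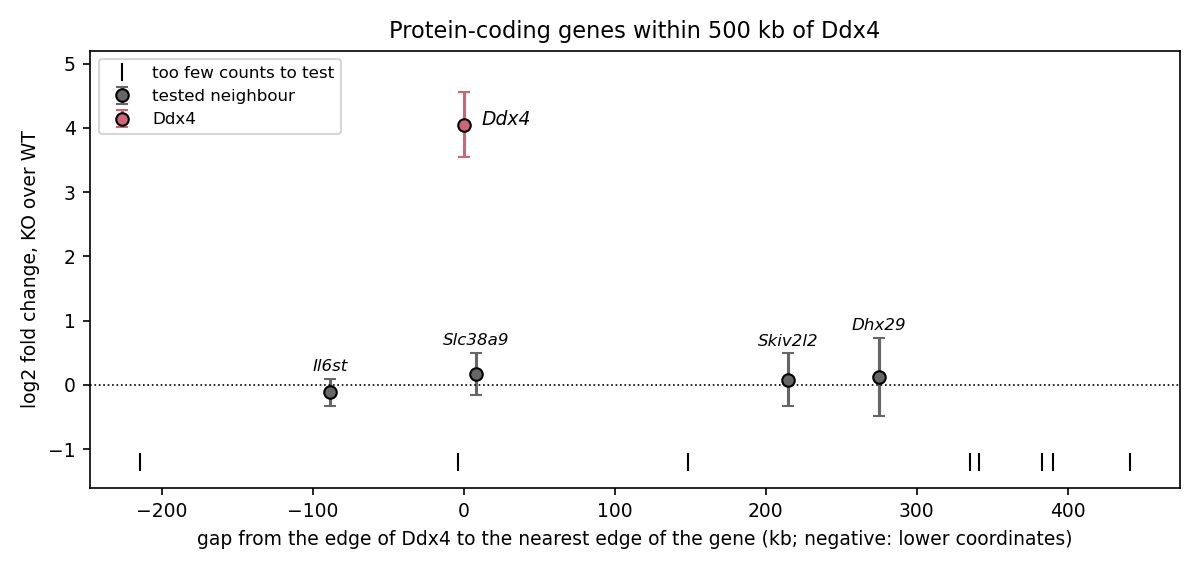
Log2 fold change of KO over WT (bars, SE) against the distance in kb between gene edges, for *Ddx4* and the protein-coding genes within 500 kb of it. The 4 tested neighbours lie between -0.11 and 0.17 and *Ddx4* at 4.05, and ticks at the bottom mark the genes with too few counts to test.

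Tested genes were ranked by how near their pattern over the 6 libraries was to that of *Ddx4*. None of the 5 nearest was on the germline lists. Only 23 genes of those lists were among the genes compared, too few for their absence from the 5 nearest to be informative. Likeness was the root mean square difference of log2(CPM + 0.5), each gene centred on its own mean, and the median over the 12512 other tested genes was 2.01. Among the 5 nearest were *Calca* at 0.323, *Adora2b* at 0.478, *Sncg* at 0.524 and *Sdcbp2* at 0.561. Because they were picked by the same libraries, no test is given for them.

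*Calca*, which encodes calcitonin and the peptide CGRP (chr7:114631478-114636357), had 0, 0 and 3 counts in WT and 57, 45 and 53 in KO. *Adora2b*, an adenosine receptor (chr11:62248984-62266453), had 2, 3 and 11 counts in WT and 80, 86 and 74 in KO. Both were low in every WT library and high in every KO library, as the choice by pattern requires. *Sncg*, gamma-synuclein (chr14:34370274-34374789), had 0 counts in each WT library and 35, 20 and 26 in KO. *Sdcbp2*, syntenin 2 (chr2:151572622-151590005), had 0 counts in each WT library and 12, 31 and 17 in KO.

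**Figure D4:**
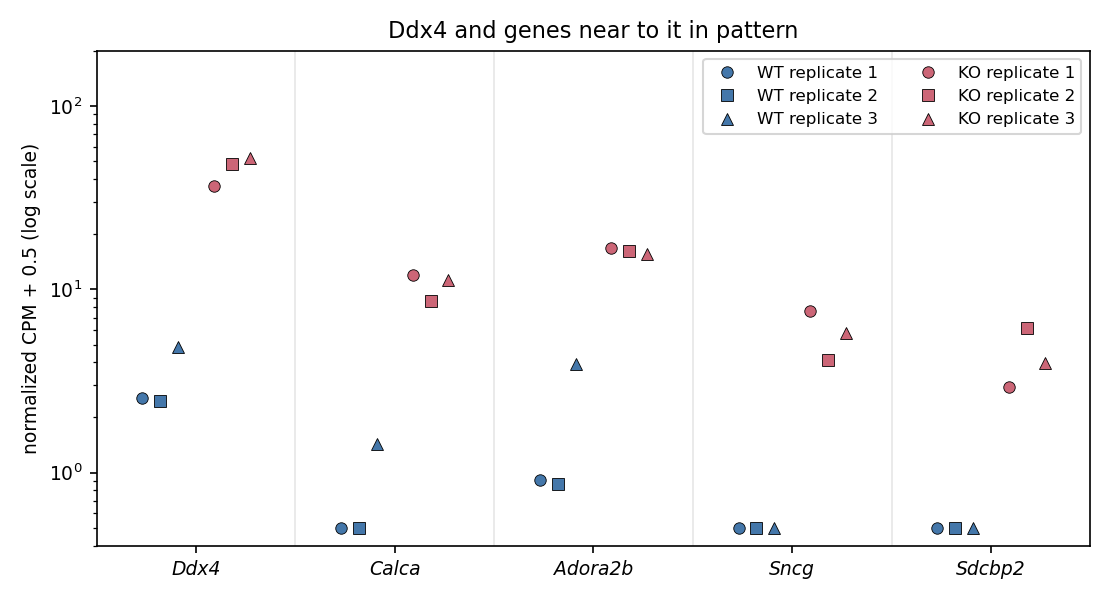
Library-scaled CPM plus 0.5 (log scale) of *Ddx4* and 4 of the 5 genes nearest to it in pattern, in the 3 WT (blue) and 3 KO (red) libraries, with a marker shape for each replicate number. Each gene was chosen for its likeness to *Ddx4*, and the means went from 2.78 to 45.0 CPM on average for *Ddx4* and from 1.39 to 15.6 CPM for *Adora2b*.

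Other cell types were checked by their markers. The HSC genes *Meis1*, *Mecom*, *Hlf* and *Ly6a* had counts in every library. So did *Cd34*, although the sort took cells negative for its protein. Of 14 sort and stem cell markers, which include *Cd34* and *Cd48* as the antigens gated negative, 13 were tested with 0 called. In 6 of the 13 the groups did not overlap, 3 higher and 3 lower in KO, against 12.4% of all genes tested, and 4 of the 13 had an unadjusted p under 0.05, against 5.71%. The part of these differences in the *Ddx4* difference was not tested. The 14 lineage markers summed to 142 to 314 CPM in WT and 420 to 447 CPM in KO, so that every KO library was above every WT library, as for *Ddx4*. Of the 14, 4 were tested and 0 called, and the part of these reads in the *Ddx4* difference was not tested. The most counted was *Ptprc*, the pan-leukocyte antigen, which HSCs also carry, at 121 to 310 CPM in WT and 214 to 439 CPM in KO. Without *Ptprc* the markers summed to 3.69 to 26.0 CPM in WT and 6.92 to 206.0 CPM in KO, and these ranges overlapped. *Mpo*, a myeloid granule enzyme, had 867 counts in KO replicate 3 against 0 to 23 in the other 5 libraries. *Ddx4* stood at 35.9, 47.7 and 51.4 CPM in KO replicates 1, 2 and 3, and its relation to *Mpo* was not tested. Skeletal muscle genes moved with the groups in the opposite direction to *Ddx4*. They summed to 247 to 600 CPM in WT and 28.2 to 55.3 CPM in KO, 20 of the 23 tested had all KO levels under all WT levels (6.15% of all genes tested), and 3 of 23 were called lower by edgeR (0.0559% of all genes tested), *Myh3*, *Acta1* and *Actc1*. DESeq2 called 18 muscle genes (1.04% of all genes it tested). *Myh3* had 283, 346 and 329 counts in WT and 0 in each KO library. The part of these muscle reads in the *Ddx4* difference was not tested.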

How the data were processed

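Bulk RNA-seq was analysed from HSCs of 3 WT and 3 KO samples, grouped by the genotype in the labels. The deposited tables, 1 of raw counts and 1 of FPKM, each held all 6 libraries. The deposited FPKM were the counts over the total of the library and a gene length, with lengths implied by different libraries within 0.000861% of each other for genes with at least 100 counts in each library. The submitters' processing notes name TopHat, HTSeq and mm10, and the labels name SMART-Seq v4 amplification. Versions, annotation and strand setting are not given in the sources used here, so reads of overlapping genes or near copies cannot be assigned with certainty. Coordinates are from GENCODE M21 (GRCm38), which held 34267 of the 34745 identifiers.

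Counts were scaled by TMM, filtered with filterByExpr and tested with the quasi-likelihood test of edgeR 4.0.16 in R 4.3.3, with Benjamini-Hochberg adjustment over 12513 genes and a threshold of 0.05. Each SE of a log2 fold change was its absolute value divided by the square root of the F statistic of that test. For *Ddx4* the SE is printed as a description, and no test is read from it. DESeq2 1.42.0 and limma 3.58.1 served as alternatives, with other scalings, filters, pseudocounts on FPKM, a replicate block, a term for Y-linked reads and each sample left out. Genes under the filter were given as raw counts, with the exact two-sided permutation test of log2(CPM + 0.5) over samples. The smallest detectable signal was set at 3 counts. CPM in the text are scaled by TMM. The labels do not say that replicates came from separate mice, so p-values measure the spread between these samples, and replicates differed by far more than sampling noise (chi-square per degree of freedom 25.9 to 53.5). Scripts were tested on simulated data.

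The members and lists were chosen with earlier results of these data known. Genes were named by rule: *Med23*, the members, list genes past the threshold, the 4 tested genes of highest mean CPM in each list and up to 3 with the largest change among those not overlapping between groups, the most counted genes of lists with fewer tested genes, protein-coding genes within 500 kb of *Ddx4*, *Ddx3x*, *Ddx3y*, *D1Pas1* and *Ddx25*, and the 5 genes nearest to *Ddx4* in pattern. In the lists of helicases, somatic relatives and repressors only the most abundant gene and those not overlapping between groups are described. Some genes that the rule allows are not reported here. No protein sequence was used here.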

Additional observations from a re-analysis of the deposited data

How the results depend on the processing

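The log2 fold change of *Ddx4* ran from 3.13 to 4.47 over 16 alternatives and kept its direction in each. It was 3.13 on log2(FPKM + 1), both for genes averaging 1 FPKM or more and for all genes, where the added 1 lowers the change of a gene that is low in WT, and 3.84 to 4.47 as each library was left out. No partner, germline list gene or tested neighbour was called under any of the 16. Of all genes, 9 were called, against 150 by DESeq2, 15 on log2(FPKM + 1) for genes averaging 1 FPKM or more, and 5 to 11 without 1 library. The log2 fold change of *Med23* stayed between -0.93 and -0.13 and was not called. Both libraries numbered 3 were left out as an alternative added after seeing the data, and *Ddx4* was then at 4.38. Counts under 3 in a library were taken as undetectable, which limits what can be said of *Piwil2*, *Tdrd1* and *Tdrd9*.

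The replicate numbers were not taken as pairs. Deviations of libraries with the same number correlated at 0.17, 0.0324 and 0.17, against -0.173 to 0.035 for the others. With the replicate block 5 genes were called and *Ddx4* had a log2 fold change of 4.09.

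The sign of some genes changed with the setting, none of them called, and the cause was not tested. *Zbtb16* was at 0.15 with the replicate block, 0.23 with a term for Y-linked reads and 0.28 on log2(FPKM + 0.1). *Dnd1* was at 0.03, 0.07 and 0.1 under the same settings. *Skiv2l2* was at -0.07 with the block and with the Y-linked term, -0.03 on log2(FPKM + 1) for either gene set, and -0.04 on log2(FPKM + 0.1). *Dhx29* was at -0.08 with the block, -0.12 with the Y-linked term, -0.0 on log2(FPKM + 1) for either gene set, and -0.06 on log2(FPKM + 0.1). Without either library numbered 3, *Catsper2* was at -0.04 and *Mpo* at -0.16. *Mpo* was at 5.24 in the main fit and at 0.38 to 11.32 as each library was left out. As each library was left out, the log2 fold change spanned 0 for *Tdrkh* (-0.48 to 0.05), *Rec8* (-0.11 to 0.29), *Syce2* (-0.38 to 0.1), *Mlh3* (-0.23 to 0.92), *Odf2* (-0.32 to 0.05), *Catsper2* (-0.38 to 0.77), *Gapdhs* (-0.04 to 0.53), *Ddx5* (-0.15 to 0.32), *Ddx3x* (-0.18 to 0.52), *Ddx3y* (-0.58 to 1.15), *Skiv2l2* (-0.27 to 0.46), *Dhx29* (-0.24 to 0.60) and *Lhcgr* (-0.13 to 0.53).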
